A study of Mus musculus with 2 samples.

Results

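Cells of the newborn mouse kidney that carried Trpv5, Calb1 and Scnn1g transcripts together made up 77 of 9735 cells, 21 of 5529 in replicate 1 and 56 of 4206 in replicate 2. They had been given the working name of connecting tubule-like cells. They were chosen by measured UMIs of the genes named in the rule, so those genes' levels are a description and support nothing. A barcode was a member when it held at least 3000 unique molecular identifiers (UMIs, each standing for 1 captured transcript), at least 500 detected genes and at most 20% mitochondrial UMIs. It also had to hold at least 1 UMI of Trpv5, 3 of Calb1 and 1 of Scnn1g, with at most 1 of Slc12a1, 1 of Aqp2, 2 of Col3a1 and 0 of Pecam1. Both libraries came from kidneys at P0, the day of birth, and carried the genotype Rbpj c/+ ; Foxd1cre/+, read here as 1 conditional Rbpj allele with a Cre recombinase expressed from the stromal progenitor gene Foxd1. No other genotype was analysed here, so no genotype effect could be tested, and nothing in the labels says whether the libraries came from separate animals. The main p-values therefore rest on how differences between classes varied between these 2 libraries, which may be technical. This spread was pooled over all classes of a fit.

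The connecting tubule joins the distal convoluted tubule to the collecting duct. It is known for regulated calcium reabsorption, in which Trpv5 lets calcium in at the apical membrane, the calbindins encoded by Calb1 and S100g carry it through the cytosol, and the exchanger Slc8a1 and the pump Atp2b1 pass it out at the basolateral membrane. It also takes up sodium through the epithelial sodium channel (subunits Scnn1a, Scnn1b and Scnn1g) under the control of aldosterone, while the distal convoluted tubule uses the sodium-chloride cotransporter Slc12a3. Textbook accounts describe an overlap of the 2 sodium pathways where the segments meet.

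Promoter sequence is shown for the gene that gave the calcium channel of the rule, for the calbindin that was not part of the rule, and for the cotransporter whose level ran against the working name. Each run covers 200 bases, from 250 to 51 bases before the RefSeq start, in RefSeq on GRCm38.p6, read 5′ to 3′ on the gene's strand. Capitals mark matches, on either strand, to AAGGTCA, the core of oestrogen-related receptor sites, to AGATAA, which zinc finger factors such as Gata3 bind, or to GCCNNNGGC, which TFAP2 factors bind.
Trpv5, 6:41680774-41680973, minus strand: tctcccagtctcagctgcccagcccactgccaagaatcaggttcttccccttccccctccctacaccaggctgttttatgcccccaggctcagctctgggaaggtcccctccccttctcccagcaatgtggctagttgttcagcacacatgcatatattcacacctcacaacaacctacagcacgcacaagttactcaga
S100g, X:162964650-162964849, minus strand: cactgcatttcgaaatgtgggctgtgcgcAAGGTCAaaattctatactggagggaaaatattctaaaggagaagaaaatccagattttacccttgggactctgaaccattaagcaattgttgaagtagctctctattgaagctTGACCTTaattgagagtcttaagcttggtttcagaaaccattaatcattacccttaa
Slc12a3, 8:94328958-94329157, plus strand: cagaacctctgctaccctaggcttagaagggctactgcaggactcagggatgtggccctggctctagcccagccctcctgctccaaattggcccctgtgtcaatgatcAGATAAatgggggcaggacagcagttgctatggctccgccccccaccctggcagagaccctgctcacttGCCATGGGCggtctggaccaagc
The S100g window held 2 AAGGTCA matches, which start 221 and 107 bases before the gene's start, against 3.36% of 32851 promoter windows of this length with any. In the Slc12a3 window, AGATAA lay at 142 bases and GCCNNNGGC at 73 bases before the start, motifs found in 8.42% and 10.6% of the windows. None of these letters occurred in the Trpv5 window. Longer patterns for the vitamin D receptor, the mineralocorticoid receptor and HNF1 were in 0, 3 and 1 of the 32851 windows, none of them those of these genes. A match is a description of letters and not of a bound site. The receptor core was searched in place of a longer receptor motif after the sequences had been seen.

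The genes named by the rule were high in the members, as the rule required, and are given without a test. Levels are counts per 1000000 UMIs (CPM) over all members of a library unless a cell is named. Trpv5 (6:41652173-41680769, minus strand, GRCm38) gave 45.9 CPM (replicate 1) and 71.4 CPM (replicate 2), with 1 to 11 and 1 to 22 UMIs per cell. The summed level of Calb1 (4:15881264-15908064, plus strand) was 2453 CPM and 6187 CPM. For Scnn1g (7:121734479-121768475, plus strand) it was 172 CPM and 206 CPM. Trpv5 was thus the sparsest of the 3, and 10 of 21 and 24 of 56 members held the single Trpv5 UMI that the rule demanded. Just outside that limit, 48 and 60 cells met every other condition with 0 Trpv5 UMIs. Just outside the Scnn1g limit stood 4 and 8 cells, and each other limit but that on Aqp2 alone kept out 0 to 3.

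S100g, the vitamin D-induced calbindin of the distal nephron, is the working name's remaining marker and was not part of the rule. All 77 members held it. Across the 21 members of replicate 1 the lowest value was 177 CPM, the median 10735 CPM and the highest 37580 CPM. In replicate 2 the values ran from 22.1 CPM through a median of 22557 CPM to 69793 CPM. S100g also entered the free RNA of these libraries, at 300.1 CPM and 1091 CPM in empty droplets, and stood at 38.2 CPM and 75.4 CPM in endothelial-gated cells. The summed level of the members, 8216 CPM and 17060 CPM, was above both in each library, but the lowest members were below the empty-droplet level, and the lowest of replicate 2 was also below the endothelial level.

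Slc12a3 went against the working name. The cotransporter, which defines the distal convoluted tubule and was not part of the rule, stood at 1579 CPM and 2512 CPM in the members. In cells gated as distal convoluted tubule, which were required to hold at least 3 Slc12a3 UMIs and 0 Scnn1g UMIs, it stood at 2251 CPM and 2367 CPM. The members thus lay below that class in replicate 1 and above it in replicate 2. It was 0.516 CPM and 2.43 CPM in principal-gated cells, which could hold at most 1 UMI of it, and 0.842 CPM and 4.06 CPM in endothelial-gated cells. Because the level was set by a gate in other classes, it was not tested. After each cell was thinned to 3000 UMIs, Slc12a3 was found in 66.7% and 71.4% of members (81.0% and 87.5% unthinned) but in 0.501% and 0.794% of endothelial-gated cells, whose median depth was 11283 and 12999 UMIs against 33723 and 36899.5 UMIs in the members. At least 2 Slc12a3 UMIs were held by 15 of 21 members (71.4%, exact 95% interval 47.8 to 88.7%) and 44 of 56 (78.6%, 65.6 to 88.4%). These intervals, like the others below, cover counting error only.

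Other markers of the distal convoluted tubule differed in how far they stood above background. The magnesium channel Trpm6 stood at 157 CPM and 226 CPM, beside 152 CPM and 243 CPM in the distal convoluted-gated cells, and at 19.02 CPM and 14.5 CPM in empty droplets. The kinase Wnk4 stood at 174 CPM and 232 CPM, against 14.1 CPM and 36.1 CPM in empty droplets, and Sall3 at 128 CPM and 103 CPM, against 9.92 CPM and 5.42 CPM. Klhl3 stood at 304 CPM and 303 CPM, with 9.92 CPM and 19.9 CPM in empty droplets, and Pvalb at 28.3 CPM and 71.4 CPM, with 1.65 CPM and 5.42 CPM. Egf, with 2 and 6 counts (1.95 CPM and 2.37 CPM), was at the level of empty droplets (1.65 CPM and 3.61 CPM). In view of the Slc12a3 level the members are called by their rule, as Trpv5 Calb1 Scnn1g cells, and not as a segment.

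**Figure D1:**
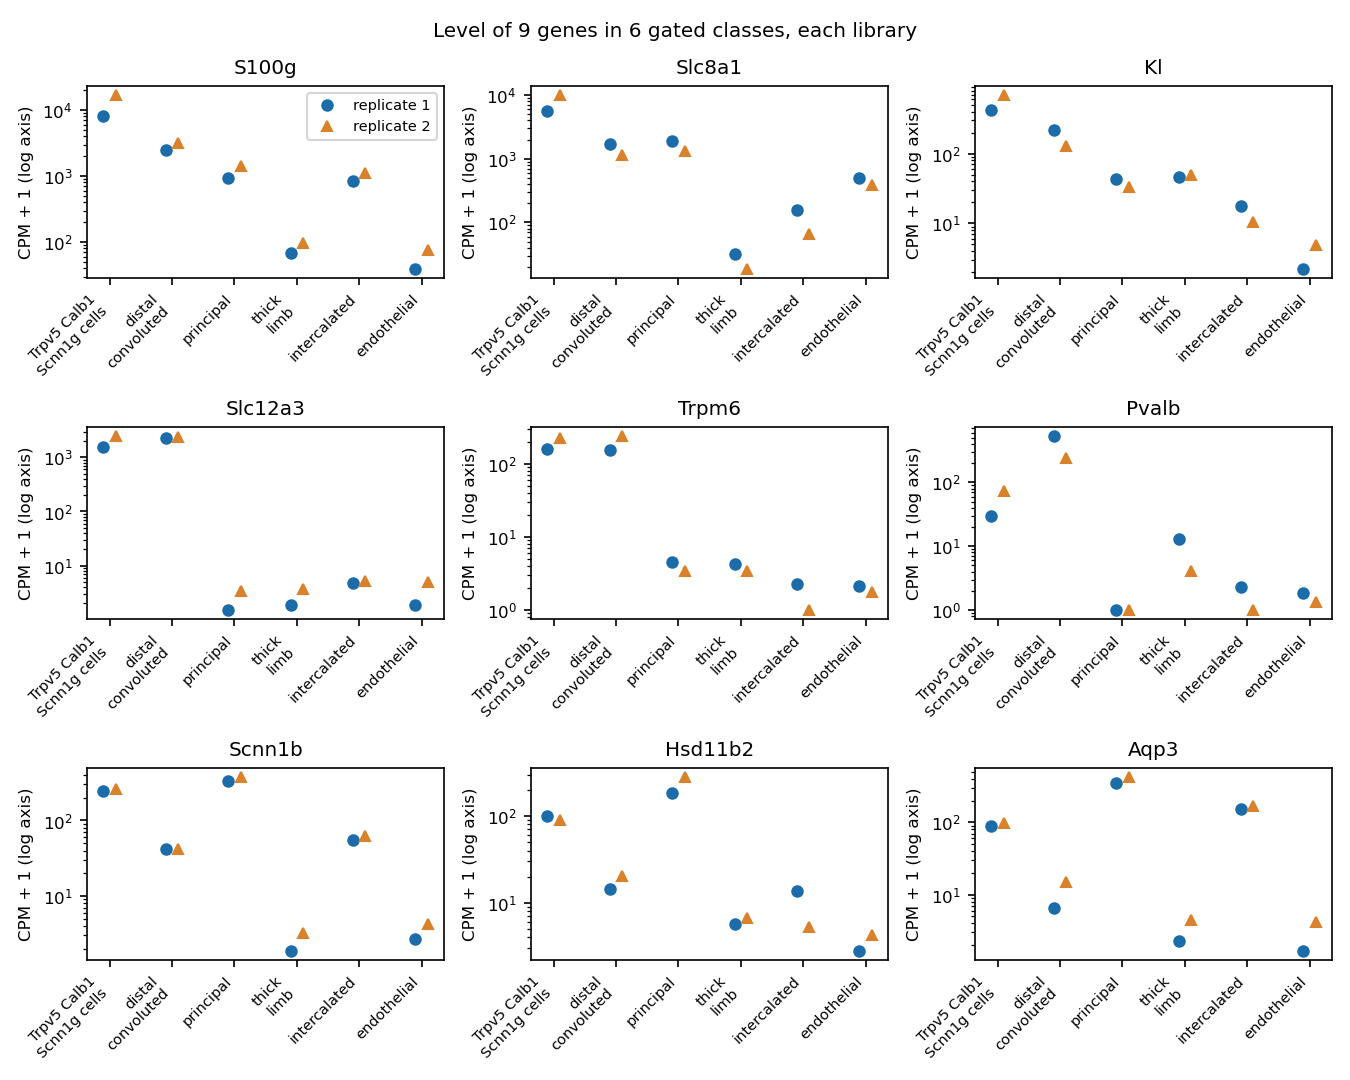
Level of 9 genes (CPM + 1, log axis) in 6 gated classes, with circles for replicate 1 and triangles for replicate 2. S100g (8216 CPM and 17060 CPM), Slc8a1 and Kl were higher in the Trpv5 Calb1 Scnn1g cells than in the other 5 classes shown, Slc12a3 and Trpm6 lay near the distal convoluted-gated cells (Slc12a3 at 1579 CPM and 2512 CPM), and Scnn1b lay near the principal-gated cells.

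The Aqp2 limit of the rule kept out more cells than it kept in. Cells that met every condition but held more than 1 Aqp2 UMI numbered 60 and 63, against 21 and 56 members. Aqp2, the vasopressin-regulated water channel of principal cells, had a median of 324 CPM and 405 CPM in them. Their S100g level was 14678 CPM and 20877 CPM, against 8216 CPM and 17060 CPM in the members. Slc12a3 was 203 CPM and 302 CPM, with a median per cell of 8.21 CPM and 10.6 CPM against 643 CPM and 1893 CPM in the members. At least 2 Slc12a3 UMIs were held by 27 of 60 (45%, 32.1 to 58.4%) and 24 of 63 (38.1%, 26.1 to 51.2%). Of these cells, 7 and 7 lay just outside the limit, at 2 Aqp2 UMIs, and 10 and 16 members lay at it. The limit is on raw UMIs and so weighs more on deep cells, and those over it had median depths of 58105.5 and 38258 UMIs. At least 2 UMIs of the intercalated-cell proton pump subunit Atp6v1g3 were held by 36 and 17 of them, against 6 and 4 members. Without the Aqp2 limit the cells would number 81 and 119.

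**Figure D2:**
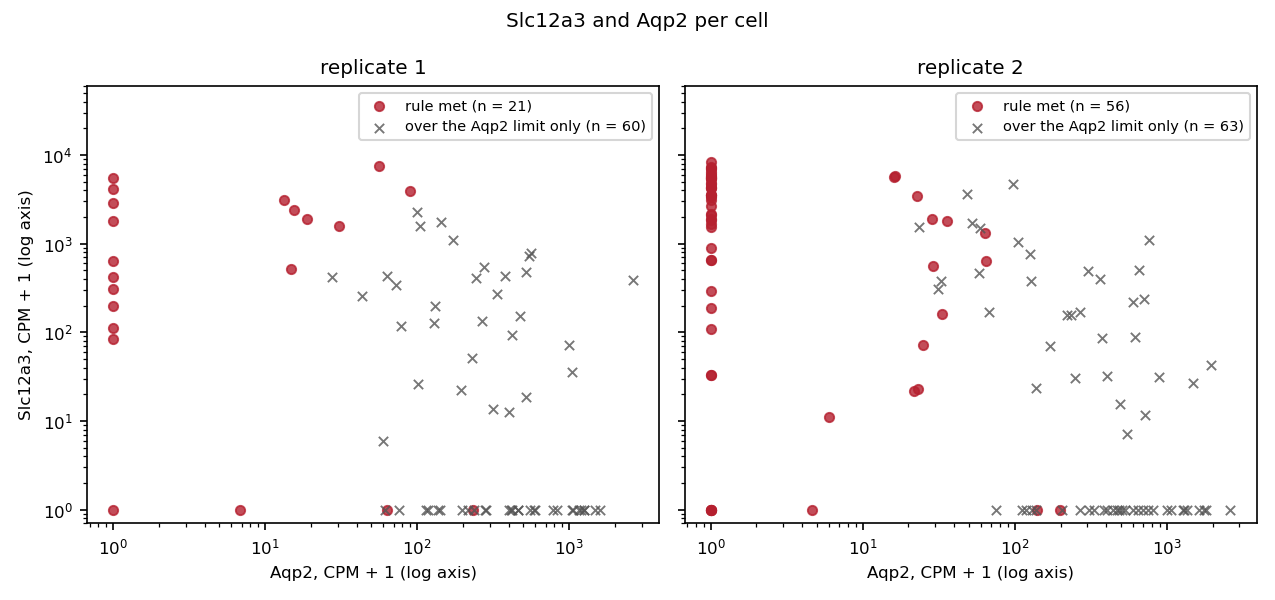
Slc12a3 against Aqp2 in single cells (CPM + 1, log axes), with dots for the 21 and 56 cells that met the rule and crosses for the 60 and 63 cells kept out by Aqp2 alone. Most members sit at 0 Aqp2 and spread up to 7501 CPM and 8304 CPM of Slc12a3, while the cells over the limit spread along Aqp2 with a median Slc12a3 of 8.21 CPM and 10.6 CPM.

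The share of cells in the class was 0.380% in replicate 1 (exact 95% interval 0.235 to 0.580%) and 1.33% in replicate 2 (1.01 to 1.73%), a mean of 0.856% ± 0.673 (SD, n = 2). The intervals did not overlap. All cells had a median depth of 15016 UMIs in replicate 1 and 20007.5 UMIs in replicate 2, and the part of depth in this difference was not tested. Members had a median of 12.6% and 14.2% mitochondrial UMIs. The libraries shared 6 cell barcodes, none of them a member in both, and 2 members in each library were among the barcodes with the highest doublet scores. The libraries held 200331687 and 173166168 UMIs in all.

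Among the members themselves, Slc12a3 ranged from 0 CPM to 7501 CPM in replicate 1 and from 0 CPM to 8304 CPM in replicate 2. Across cells of 1 library, which are not replicates and share its depth and free RNA, Trpm6 ran with Slc12a3 (Spearman rank correlation 0.79 over 21 cells and 0.83 over 56 cells). The potassium channel Kcnj1 did likewise, at 0.65 and 0.70. Hsd11b2, the enzyme that protects the mineralocorticoid receptor from glucocorticoids, ran the other way, at -0.35 and -0.56. The same correlation was closer to 0 for Scnn1g and Trpv5, genes of the rule, at -0.04 and -0.08 for Scnn1g and 0.06 and -0.23 for Trpv5. Within each library the cells high in Slc12a3 were thus mostly high in Trpm6. Hsd11b2 tended to be lower where Slc12a3 was higher, less so in replicate 1, and Hsd11b2 was not compared with Trpm6.

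At least 1 UMI of both Slc12a3 and Hsd11b2 was held by 13 of 21 members (61.9%) and 30 of 56 (53.6%). Of the 17 and 35 members with Hsd11b2, 4 and 11 held a single UMI of it. Hsd11b2 was found in 81.0% and 62.5% of members and in 2.67% and 5.16% of the shallower endothelial-gated cells, and after thinning in 23.8% and 28.6% against 0.334% and 0.794%. Pvalb, the calcium-binding protein of the early distal convoluted tubule, was found in 4 of 21 and 21 of 56 members. Of these, 3 and 6 also held Hsd11b2, against 14 of 17 and 29 of 35 members without Pvalb. Most members with Pvalb in replicate 2 thus lacked Hsd11b2, while in replicate 1 only 1 of the 4 did.

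**Figure D3:**
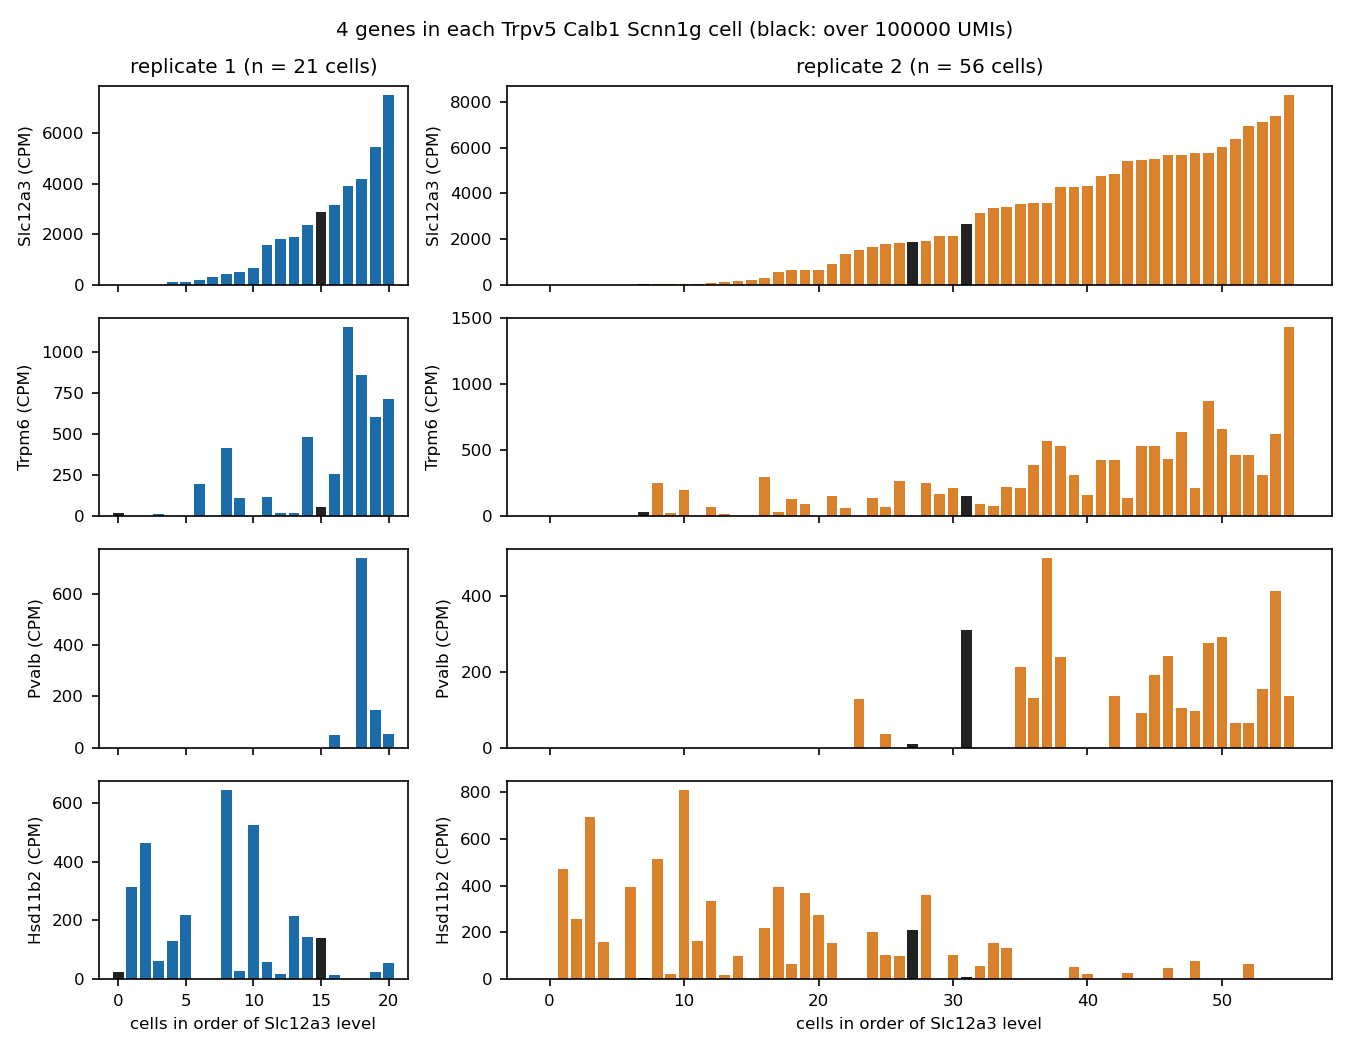
Slc12a3, Trpm6, Pvalb and Hsd11b2 (CPM, linear axes) in each member, ordered by Slc12a3, for the 21 cells of replicate 1 and the 56 cells of replicate 2, with cells over 100000 UMIs in black. Trpm6 and Pvalb rise to the right with Slc12a3 (rank correlation 0.79 and 0.83 for Trpm6) and Hsd11b2 is found mainly to the left (rank correlation -0.35 and -0.56).

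A few members were far deeper than the rest. Over 100000 UMIs were held by 2 members of replicate 1 and 4 of replicate 2, which gave 29.3% and 28.3% of all member UMIs. The deepest cell of each library, with 172616 and 273922 UMIs, held 0 Slc12a3 UMIs. In each library 1 member held the ureteric tip genes Ret and Wnt11 together, and all 34 and all 40 Ret UMIs came from members of this depth. The 10 members with at least 2 Atp6v1g3 UMIs, 6 and 4, gave 99.5% and 91.1% of that gene's counts. Results that rest on these cells are given with and without them, or with the part of the counts that these cells held.

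Differences between classes were tested on counts summed per library and class with edgeR's quasi-likelihood F test, two-sided, with Benjamini-Hochberg adjustment over all tested genes and a threshold of 0.05. The library was a block. All comparisons share the members' sums. The members were chosen for Trpv5, Calb1 and Scnn1g, and against Aqp2, Slc12a1, Pecam1 and Col3a1. A gene that goes with or against any of these in the same cells differs through the choice of cells. The other classes were gated as well. The differences below describe these gated classes.

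Against distal convoluted-gated cells (19 and 47 cells), the Trpv5 Calb1 Scnn1g cells held more S100g, Slc8a1, Kl, Scnn1b, Hsd11b2, Sgk1 and Aqp3, and less Trpm7 and Pvalb. Most genes of the transport lists were not called. Of 12597 genes tested, 101 were called, 0.802%, with 81 higher (0.643%) and 20 lower (0.159%). The median log2 fold change of all tested genes was 0.02, and 1775 genes had an unadjusted p under 0.05. The number of calls was 30 without the block, and all 30 were among the 101. It was 193 without the members of replicate 2 and 122 without those of replicate 1, of which 63 and 65 were among the 101. The distal convoluted-gated cells were shallower, with medians of 13145 and 22396 UMIs.

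In the calcium and magnesium list, 15 of 19 genes were tested here, the others being too low or part of a gate. Of these, 3 were higher (S100g, Slc8a1 and Kl), 2 were lower (Trpm7 and Pvalb) and 10 were not called, with a median of 0.26. S100g stood at 8216 CPM and 17060 CPM in the members and at 2441 CPM and 3137 CPM in the distal convoluted-gated cells. The log2 fold change of S100g was 2.06 ± 0.19 (SE, adjusted p = 0.0015). Without the block its adjusted p was 0.051.

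Slc8a1 (17:81373105-81738377, minus strand), the basolateral sodium-calcium exchanger, stood at 5723 CPM and 10139 CPM in the members and at 1721 CPM and 1136 CPM in the distal convoluted-gated cells. The difference was 2.53 ± 0.37 (adjusted p = 0.013). It was 1.61 without the members of replicate 2 and 3.18 without those of replicate 1, both called, and 2.60 with adjusted p = 0.057 without the members that held at least 2 Atp6v1g3 UMIs. Kl, which encodes the klotho protein, a coreceptor for fibroblast growth factor 23, was 416 CPM and 700.1 CPM against 215 CPM and 129.5 CPM. It was higher by 1.74 ± 0.30 (adjusted p = 0.027). Without the members of replicate 2 it was higher by 1.09 and missed the threshold (adjusted p = 0.057), as it did without the block (0.053) and without the Atp6v1g3 members (0.085).

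The channels of magnesium entry did not follow. Trpm6 differed by -0.11 ± 0.22 (adjusted p = 0.88). Trpm7, a widely expressed relative, was lower at 342 CPM and 289 CPM against 753 CPM and 685 CPM (-1.25 ± 0.16, adjusted p = 0.0080), and its call held under every alternative run. Pvalb was 28.3 CPM and 71.4 CPM against 538 CPM and 237 CPM (-2.63 ± 0.52, adjusted p = 0.0499). It was -1.61 without the members of replicate 1 and -4.49 without those of replicate 2, and was a call at the threshold that was lost without the block (0.099), with DESeq2's Wald test (0.29), at a minimum of 5000 UMIs (0.054), and without the members over 100000 UMIs (0.10) or with Atp6v1g3 (0.094). The second calcium entry channel Trpv6 (44.96 CPM and 25.2 CPM against 16.3 CPM and 14.9 CPM), the vitamin D receptor Vdr (160.3 CPM and 190.5 CPM against 125 CPM and 102 CPM) and the kallikrein Klk1 (106 CPM and 655 CPM against 54.4 CPM and 91.0 CPM) had higher levels in both libraries but were not called. Klk1 (2.23, adjusted p = 0.068) was called under 5 alternatives, among them without the members of replicate 1 (2.89, adjusted p = 0.00018) and after thinning (2.89, 1.2e-08). Vdr was called with no filter on low counts, under the stricter rule (1.30, adjusted p = 0.017) and with no Aqp2 limit, and Trpv6 with no Aqp2 limit (1.12, 0.047). In replicate 2, 1 cell held 30.5% of the Klk1 counts.

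In the sodium channel and aldosterone list, 15 of 16 genes were tested, of which 3 were higher, 0 lower and 12 not called, with a median of 0.30. The higher genes were the channel subunit Scnn1b, Hsd11b2 and the aldosterone-induced kinase Sgk1. Scnn1b stood at 245 CPM and 258 CPM against 40.8 CPM and 41.1 CPM, a difference of 2.61 ± 0.22 (adjusted p = 0.0011) that was called under every alternative run. The gate of the distal convoluted class required 0 UMIs of its partner subunit Scnn1g. Hsd11b2 was 98.7 CPM and 89.9 CPM against 13.6 CPM and 19.3 CPM (2.44 ± 0.44, adjusted p = 0.029), and lost its call without the block (0.099) and after thinning (0.11). Sgk1 was 69.4 CPM and 108 CPM against 19.03 CPM and 21.9 CPM (2.10 ± 0.36, adjusted p = 0.027). It missed the threshold without the members of replicate 2 (1.69, adjusted p = 0.099), without the block (0.063) and without the Atp6v1g3 members (0.068). The subunit Scnn1a and the mineralocorticoid receptor Nr3c2 differed by 0.30 and 0.50 and were not called. Under the stricter rule both were (0.95, adjusted p = 0.033, and 1.09, adjusted p = 0.027), as was Nr3c2 with no Aqp2 limit (0.85, 0.031).

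Potassium and chloride channel genes and the WNK kinases, which set Slc12a3 activity, gave no call: 0 of 12 tested, with a median of -0.39. Kcnj1, for example, was 161 CPM and 180.2 CPM in the members and 343 CPM and 238 CPM in the distal convoluted-gated cells (-0.75 ± 0.23, adjusted p = 0.17). Kcnj1 was called lower with no Aqp2 limit (-1.53, adjusted p = 0.0059) and with no filter on low counts (-0.73, 0.0044). In the water list, 1 of 7 genes was called. This was Aqp3, the basolateral aquaglyceroporin of principal cells, at 87.0 CPM and 97.8 CPM against 5.44 CPM and 14 CPM (3.02 ± 0.34, adjusted p = 0.0043), and it was called under every alternative run. Of 11 intercalated genes tested, only the ammonium channel Rhbg was called, at 70.4 CPM and 67.0 CPM against 16.3 CPM and 14 CPM (2.26 ± 0.33, adjusted p = 0.013). Rhbg lost its call without the block (0.087) and after thinning (0.39).

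Of 20 distal transcription factors, 1 was called, Gata2, a zinc finger factor of the collecting system. It stood at 17.6 CPM and 21.7 CPM in the members with 0 counts in the distal convoluted-gated cells of either library. Set against the 3 counts that 0 allows over the class, this is at least 10.3-fold higher. Its adjusted p was 0.027, and 0.052 without the block. The distal factors Sall3 (-0.87) and Emx1 (-0.39) and the related Gata3 (1.02) were not called. With no Aqp2 limit Sall3 was called lower (-1.84, adjusted p = 0.0015) and Gata3 higher (1.58, 0.0035). Both were also called with no filter on low counts, and Gata3 with DESeq2's Wald test (0.023).

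Among the 10 genes with the largest positive differences were 9230110F11Rik, Lcn2, Krt23, Fgf12, Ctnnd2, Rprm, Dok6, Crybg1 and Grik2. All of these but Crybg1 lost their call when the members over 100000 UMIs were left out, and also under the stricter rule of 2 Trpv5 and 5 Calb1 UMIs. For instance, Lcn2, an iron-siderophore binding protein, had 87 and 80 counts in the members, of which 98.9% and 95% lay in those deepest cells, and was found in 2 members of each library. Rprm, a cell cycle regulator, had 97.3% and 92.7% of its counts there. The immature-state factor Sox11 was called at 1.41 ± 0.20 (adjusted p = 0.013) and stood at -0.065 without those cells. Fgf12, Dok6 and Grik2 also missed the threshold without the members of replicate 2, at 5.10, 3.50 and 3.13 (adjusted p = 0.067, 0.12 and 0.074). Crybg1, which was found in 14 and 16 members, had 41 and 65 counts against 0 and 2, a ratio of 22.5 (exact 95% counting interval 6.23 to 186).

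Among the 10 largest negative differences, Ptgfr, the receptor of prostaglandin F, was 13.7 CPM and 12.6 CPM against 54.4 CPM and 63.0 CPM (-2.24 ± 0.29, adjusted p = 0.0080). The cytoskeletal adaptor Ank2 was 28.3 CPM and 24.5 CPM against 108.7 CPM and 95.4 CPM (-2.00 ± 0.29, adjusted p = 0.013). Both were called under every alternative run except thinning, after which they were too low to be tested. Nrxn3, a cell adhesion gene, was lower by -4.50, and without replicate 2's members by -3.97 (adjusted p = 0.099). Galnt9 was lower by -3.18, and missed the threshold without replicate 1's members (-2.87, adjusted p = 0.052) and without replicate 2's (-3.86, 0.053). Umod, Pvalb, Wnt5a, B130024G19Rik, Cables1 and Stk32b made up the rest. Without replicate 1's members the last 4 of these stood at -1.76, -1.66, -1.34 and -1.06 and were not called (adjusted p = 0.11, 0.070, 0.066 and 0.11), and B130024G19Rik was also not called without replicate 2's (-1.42, adjusted p = 0.17).

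Markers of other cell types lay beside these values. The 13 intercalated genes summed to 1431 CPM and 502 CPM in the members against 334 CPM and 257 CPM in the distal convoluted-gated cells, with 12 and 11 of 13 detected and Hmx2 at 0. The distal convoluted gate allowed at most 1 UMI of Atp6v1g3, a gene of this list, and the member rule set no such limit. This contrast is therefore set in part by the gate. The 6 and 4 members with at least 2 Atp6v1g3 UMIs held 99.5% and 91.1% of its counts in the members. The 8 proximal tubule genes summed to 93.8 CPM and 73.8 CPM, against 1522 CPM and 52.5 CPM. Nephron progenitor genes (5) summed to 141 CPM and 17.0 CPM against 48.9 CPM and 295 CPM, and erythroid genes (4) to 53.8 CPM and 84.0 CPM against 514 CPM and 4417 CPM. In replicate 1, 1 member among the highest doublet scores held 24 of 31 Six2 UMIs and 13 of 30 Cited1 UMIs. The 66 Eya1 UMIs of that library lay in 3 members. The cell cycle list (16) summed to 446 CPM and 790.0 CPM against 416 CPM and 213 CPM. Endothelial, stromal and immune lists stayed between 3.91 CPM and 18.5 CPM in the members. The member rule required 0 UMIs of Pecam1, an endothelial list gene, and at most 2 of Col3a1, a stromal list gene. The low sums of these lists are therefore set in part by the choice of cells. The part of these genes in the differences was not tested.

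Against principal-gated cells (107 and 99 cells), the Trpv5 Calb1 Scnn1g cells were higher in most calcium, magnesium and chloride transport genes and lower in 5 of 7 water transport genes. Of 12899 genes, 2664 were called, 20.7%, with 1459 higher (11.3%) and 1205 lower (9.34%), and the median of all tested genes was -0.03. There were 1557 calls without the block, 1536 without the members of replicate 2 and 2337 without those of replicate 1. The principal gate required 3 Aqp2 UMIs and excluded Trpv5. The principal-gated cells had medians of 18324 and 27983 UMIs and 7.80% and 8.24% mitochondrial UMIs, against 12.6% and 14.2% in the members, and the part of these in the differences was not tested.

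Of 16 tested genes in the calcium and magnesium list, 14 were higher and 0 lower, with a median of 3.42. S100g was 937 CPM and 1441 CPM in the principal-gated cells, less than in the members by 3.49 ± 0.20 on the log2 scale (adjusted p = 1.4e-06). Slc8a1 stood at 1901 CPM and 1320 CPM there, a difference of 2.51 ± 0.37 (adjusted p = 0.00067) that was 1.61 without the members of replicate 2 and 3.17 without those of replicate 1. Kl (4.02), Vdr (3.63), Trpv6 (1.76), Trpm7 (1.64), Trpm6 (6.12) and Klk1 (8.52, and 7.03 without replicate 2's members) were all higher and called under every alternative run, except that Trpv6 was too low to be tested after thinning. Pvalb had 29 and 181 counts in the members and 0 in the principal-gated cells, at least 157-fold higher.

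The sodium channel and aldosterone list was divided, with 5 of 15 tested genes higher, 5 lower and 5 not called, and a median of 0.44. Fxyd2, which encodes a subunit of the sodium pump, was higher by 4.81 ± 0.24. Fxyd4, the pump regulator of the collecting duct, was 4.89 CPM and 7.89 CPM in the members against 1140 CPM and 1410 CPM, lower by -7.43 ± 0.44 (adjusted p = 1.5e-06). The smallest Fxyd4 difference over the alternatives run was -2.56. The ubiquitin ligase Nedd4l, which removes the sodium channel from the membrane, was lower by -1.35 ± 0.15. Scnn1b (245 CPM and 258 CPM against 330.0 CPM and 378 CPM) differed by -0.37, Sgk1 by -0.13 and Nr3c2 by 0.44, none of them called. Hsd11b2 was lower by -1.18 ± 0.26 (adjusted p = 0.0067), but stood at -0.83 without the members of replicate 2 (adjusted p = 0.14) and missed the threshold without the block (0.070). With the Aqp2 limit dropped, Scnn1b, Sgk1 and Nr3c2 were higher than in the principal-gated cells (0.63, adjusted p = 0.012, 1.36, adjusted p = 0.00037, and 0.82, adjusted p = 0.0071), and Hsd11b2 stood at 0.43 and was not called. Nr3c2 was also called under the stricter rule (1.04, adjusted p = 0.0018), with no filter on low counts (0.037) and without the members over 100000 UMIs (0.80, 0.027).

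Of 12 tested potassium, chloride and WNK genes, 9 were higher and 0 lower, with a median of 2.60. Examples were Kcnj1 (161 CPM and 180.2 CPM against 5.16 CPM and 1.70 CPM, 5.79 ± 0.29), the kinase Wnk1 (3.37 ± 0.21) and its adaptor Klhl3 (2.89 ± 0.17). Each was called under every alternative run.

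In the water list, 5 of 7 tested genes were lower, 1 was higher and 1 was not called, with a median of -2.24. Aqp4, the basolateral water channel, was 5.86 CPM and 2.37 CPM against 237 CPM and 233 CPM (-5.95 ± 0.29). The vasopressin receptor Avpr2 was lower by -4.09 ± 0.49 and the principal cell factor Elf5 by -5.22 ± 0.32. Npnt was lower by -2.24 ± 0.17. The smallest differences over the alternatives run were -2.48 for Aqp4, -1.61 for Avpr2, -2.58 for Elf5 and -1.30 for Npnt. Aqp3 was lower by -1.97 ± 0.19, a difference of -0.17 (adjusted p = 0.53) when the Aqp2 limit was dropped.

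**Figure D4:**
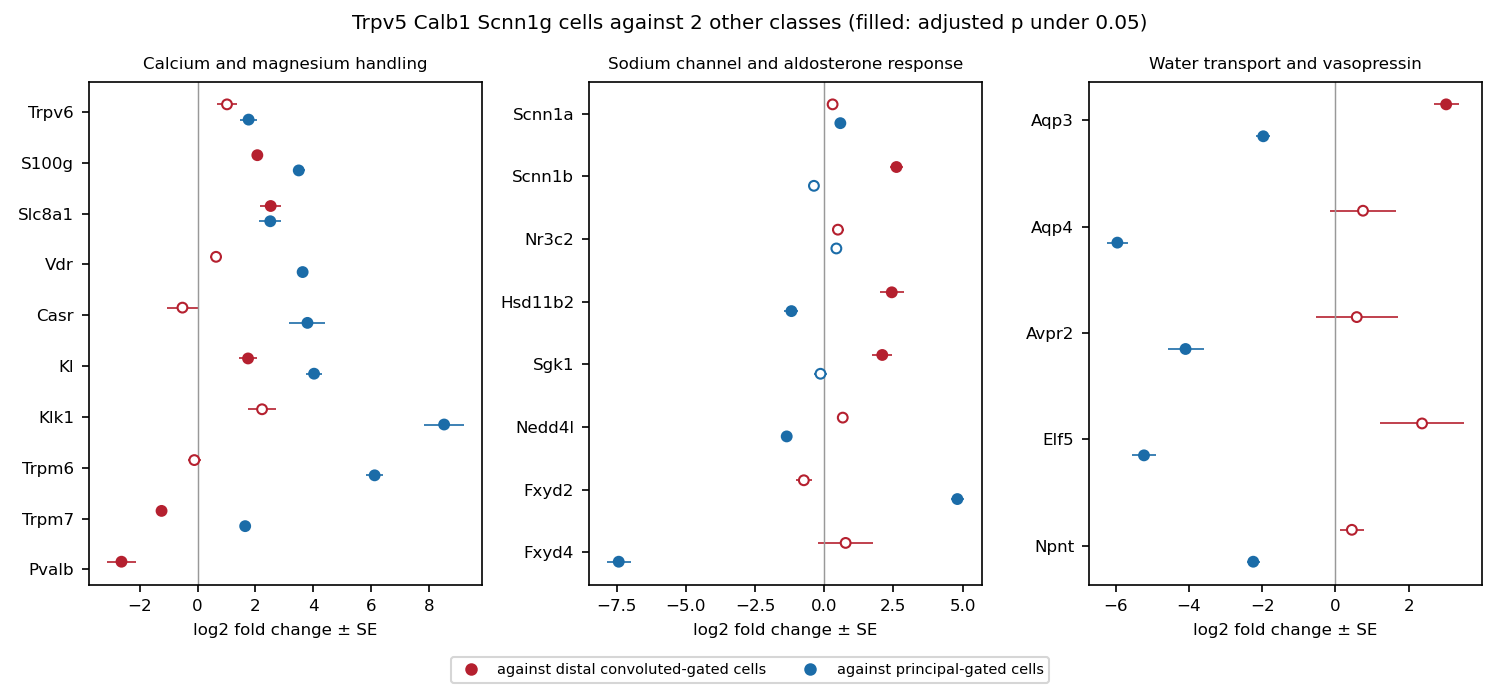
Log2 fold change ± SE (n = 2 sums per class) of the genes of 3 lists that are named here, in the Trpv5 Calb1 Scnn1g cells, in red against distal convoluted-gated cells and in blue against principal-gated cells, filled where the adjusted p was under 0.05. Differences from classes with 0 counts in both libraries are left out. The calcium genes drawn lie above 0 against principal-gated cells (S100g at 3.49), and Scnn1b, Hsd11b2, Sgk1 and Aqp3 were called higher against distal convoluted-gated cells and lie below 0 against principal-gated cells (-0.37, -1.18, -0.13 and -1.97), the first 3 of which turn positive with no Aqp2 limit.

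Of 20 distal transcription factors, 7 were higher and 5 lower than in the principal-gated cells, with a median of -0.20. Sall3 (5.24 ± 0.33), Emx1 (3.45 ± 0.26) and Tfap2b (1.97 ± 0.19) were among the higher genes. Prox1 had 8 and 31 counts against 2 and 1, a ratio of 29.2 (exact 95% counting interval 9.98 to 142). Of its counts in the members, 62.5% and 45.2% lay in those over 100000 UMIs. The oestrogen-related receptor Esrrb had 64 and 86 counts against 0 and 1, a ratio of 337 (exact 95% counting interval 60.4 to 13298). Gata3 (253 CPM and 124 CPM against 667 CPM and 420.0 CPM) was lower by -1.45 ± 0.20, and Gata2 by -2.09 ± 0.26, the latter not called with the Aqp2 limit dropped (-0.48, adjusted p = 0.10). Ureteric epithelium genes gave 2 higher, 6 lower and 5 not called of 13, with a median of -0.67. The branching ligands Wnt7b (-4.11 ± 0.30) and Wnt9b (-3.51 ± 0.24) and the keratin Krt18 (-2.26 ± 0.29, from -1.76 to -3.06 without the members of 1 library) were among the lower genes.

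By size alone, the 10 largest positive differences from principal-gated cells were those of Pvalb, Scn4b, Klk1, Esrrb, Abca13, Adrb1, Slc4a1, Trpm6, Kcnj1 and Ltc4s. Abca13, a lipid transporter, was 360 CPM and 571 CPM against 1.55 CPM and 1.70 CPM (8.27 ± 0.42, adjusted p = 9.9e-07). Adrb1, the beta-1 adrenergic receptor, had 17 and 63 counts against 1 and 0, a ratio of 180 (32.2 to 7092). Slc4a1, the anion exchanger of intercalated cells, rested on replicate 1, with 56 counts there and 1 in replicate 2, and stood at 1.18 without the members of replicate 1 (adjusted p = 0.73) and at 1.29 without the Atp6v1g3 members (adjusted p = 0.68). Among the 10 lowest, Crisp1, Hsd3b6 and Npsr1 had 0 counts in the members and 422, 244 and 233 in the principal-gated cells. The urea transporter Slc14a2 was 0 CPM and 1.97 CPM against 277 CPM and 96.8 CPM (-6.58 ± 0.51, and -5.25 without replicate 1's members), and Adh1 was lower by -6.08 ± 0.37. Sprr2f (-8.12) and S100a14 (-6.98) were likewise lower, S100a14 being too low to be tested after thinning. Hmx2, with 0 counts in the members, was not called without replicate 2's members (adjusted p = 0.15), after thinning (0.11) or with the Aqp2 limit dropped (0.95).

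Thick limb-gated cells (281 and 323 cells) were required to hold 5 Slc12a1 UMIs and served as the upstream segment. Of 12899 genes, 1322 were called, 10.2%, with 782 higher (6.06%) and 540 lower (4.19%), and the median of all tested genes was -0.00159. There were 777 calls without the block, 829 without the members of replicate 2 and 1059 without those of replicate 1. All 8 tested thick limb genes were lower, with a median of -7.22. Umod, the secreted uromodulin, was 0.977 CPM and 3.55 CPM in the members against 902 CPM and 798 CPM (-8.19 ± 0.32). The claudins Cldn10, Cldn16 and Cldn19 were lower by -8.73, -6.30 and -2.88, with Cldn16 at -4.92 without replicate 2's members. The factor Irx1 was lower by -8.13 ± 0.25, and Irx2 had 0 counts in the members against 1482 and 1315.

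In the calcium and magnesium list, 11 of 16 tested genes were higher and 1 lower than in the thick limb-gated cells, with a median of 2.52. The lower gene was the calcium-sensing receptor Casr, at 7.82 CPM and 7.89 CPM against 99.2 CPM and 76.3 CPM (-3.35 ± 0.30). Slc8a1 (8.47 ± 0.49) and S100g (7.26 ± 0.24) had the largest called differences of this list, and Trpm6 (6.11), Trpv6 (4.78), Kl (3.61) and Vdr (2.90) followed. In the sodium list, 5 of 15 were higher and 2 lower (median 0.65), among them Scnn1b (7.36 ± 0.23), Sgk1 (5.06 ± 0.31) and Hsd11b2 (4.18 ± 0.31). In the potassium list 4 of 12 were higher and 1 lower (median 0.22), and Kcnj1, shared with the thick limb, differed by -0.47 (adjusted p = 0.17), and by -1.26 (0.0014) with no Aqp2 limit.

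The remaining large positive differences from the thick limb were in genes of the collecting system. Rhcg, an ammonia channel, was 194 CPM and 234 CPM against 1.31 CPM and 2.05 CPM (7.02 ± 0.30), and the proton-potassium pump Atp12a was 157 CPM and 170.4 CPM against 0.435 CPM and 2.23 CPM (6.98 ± 0.37). Guca2a, which encodes guanylin, was higher by 7.36 ± 0.69, and by 6.17 without replicate 2's members. Emx1 (6.49 ± 0.30), Gata3 (5.84 ± 0.26), Aqp3 (5.33 ± 0.25) and the claudin Cldn8 (3.24 ± 0.17) were also higher, and Tfap2b was lower by -1.20 ± 0.17. Slc34a2, Slc9a3, Sim2 and Car15 were among the largest negative differences. Krt23 and Slco4c1 were called higher but lost the call without the members over 100000 UMIs, and Slc4a1 without the members of replicate 1 (1.47, adjusted p = 0.73).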

How the data were processed

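The deposited files hold raw UMI counts per gene and barcode for 2 libraries. The authors made them with Cell Ranger 4 per the file headers. The submitters' processing notes name Cell Ranger 6.0.1 and the build mm10. Of 32285 listed gene identifiers, 32158 were found in GENCODE M21 (GRCm38), from which gene coordinates come. The members, gates and lists were chosen with earlier results of these data known.

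Counts of gated cells were summed per library and class and tested with edgeR 4.0.16 under R 4.3.3 (TMM factors, its default count filter, library as block, since both classes of a comparison come from the same library). The 13 genes used by any gate were not tested. The comparisons with principal and thick limb cells used 10 sums and 4 residual degrees of freedom. The distal convoluted class had 19 cells in replicate 1, under the planned minimum of 20, so that comparison was fitted with a minimum of 10, chosen after the cell numbers were seen (12 sums, 5 degrees of freedom). Members without Slc12a3 (4 and 7) were too few for the planned comparison by Slc12a3. Replicate numbers follow accession order and are only names. A fold against 0 counts is a bound from 3 counts over the class, and 1 to 3 counts give a ratio with its counting interval. Doublets (highest Scrublet scores, 0.8% per 1000 cells, scanpy 1.11.5) stayed in. On simulated counts, 64% of 4-fold and 25% of 2-fold changes were recovered for the distal convoluted comparison, 81% and 41% for principal, and 82% and 58% for thick limb. Named genes were those of the gene lists and the 10 largest called differences in each direction with the same sign in both libraries and a mean of at least 20 CPM in the higher class; a few of these are not reported here.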

Additional observations from a re-analysis of the deposited data

Results flagged for a closer look

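Some barcodes kept out by the mitochondrial limit met the gene conditions of the rule. Of 543 barcodes with over 20% mitochondrial UMIs in replicate 1, 10 met the gene conditions of the rule (1.84%, exact 95% interval 0.887 to 3.36%), above the 0.552% that a count of 0 allows. In replicate 2 they were 18 of 632 (2.85%, 1.70 to 4.46%), above a limit of 0.475%. Their medians were 28.1% and 25.8% mitochondrial UMIs. S100g stood at 16379 CPM and 21110 CPM in them and Slc12a3 at 3144 CPM and 2144 CPM. They were flagged because the main comparisons do not use them. They were picked by the genes of the rule, so their number is a description and does not show what kind of cells they are.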

How the results depend on the processing

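Against distal convoluted-gated cells the count of 101 calls became 857 with no filter on low counts, 30 with no replicate block, 260 with DESeq2's Wald test, 173 without called doublets, 152 under the stricter rule and 38 after thinning to 3000 UMIs. Leaving out the members of 1 replicate gave 122 to 193. Among the alternatives added after seeing the data, it was 66 for members with at most 1 Atp6v1g3 UMI, 63 for members with at most 100000 UMIs and 719 with no Aqp2 limit. Against principal-gated cells, 2664 became 1557 with no replicate block and 937 after thinning, with 1536 to 2337 without 1 replicate. Against thick limb-gated cells, 1322 became 777 with no replicate block, 492 after thinning and 2453 with no Aqp2 limit, with 829 to 1059 without 1 replicate. The block pairs sums of the same library and changed no direction. The mean share was 2.15% with no Aqp2 limit and 0.380 to 1.33% without 1 replicate. It was 0.471% under the stricter rule and 0.253% with at most 10% mitochondrial UMIs (7 and 13 members). Splitting the members by Slc12a3 and limiting mitochondrial UMIs to 10% were not run for genes, since too few members were left.

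Signs changed for some named genes. Under the stricter rule, differences from the distal convoluted-gated cells were -0.51 for Sox11, -0.012 for Krt23, -2.11 for Rprm, -0.029 for 9230110F11Rik, -5.26 for Dok6 and -1.53 for Grik2. Sox11 was -0.065 with at most 100000 UMIs. From the thick limb, Krt23 was -2.29 and Slco4c1 -2.85 under the stricter rule, and Slco4c1 -1.20 after thinning. With no Aqp2 limit, Scnn1b, Hsd11b2 and Sgk1 differed from principal-gated cells by 0.63, 0.43 and 1.36. The causes were not tested. Of 124 named differences, 108 were called and 73 of them under every alternative run for them (some were too low to be tested after thinning). Only 2 libraries and few members limit what could be called.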

Other observations

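The shares called among all genes were 0.802% against distal convoluted-gated cells and 20.7% against principal-gated cells, in comparisons that share the members' sums. Of 12 genes for energy metabolism, 11 were higher than in principal-gated cells, with a median of 0.93, and 0 of 12 were called against distal convoluted-gated cells. The members had median mitochondrial shares of 12.6% and 14.2%, against 7.80% and 8.24% in principal-gated cells, and a median depth of 33723 and 36899.5 UMIs against 18324 and 27983 UMIs. The part of these in the difference was not tested. Ppargc1a, a coactivator of mitochondrial genes, was 508 CPM and 355 CPM in the members, 166 CPM and 119 CPM in principal-gated cells and 473 CPM and 425 CPM in distal convoluted-gated cells. Its difference from principal-gated cells was 1.71 (adjusted p = 2.8e-05 by edgeR). The creatine kinase Ckb was higher than in principal-gated cells by 3.14 ± 0.33 (2.07 without the members of replicate 2) and stood at 23.5 CPM and 126 CPM in the members.

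Of 10 Notch pathway genes tested, 0 were called against distal convoluted-gated cells, and 1 was higher and 2 lower against principal-gated cells. Rbpj, the conditional gene of the genotype, was 54.7 CPM and 44.6 CPM in the members, 43.5 CPM and 62.1 CPM in distal convoluted-gated cells and 62.7 CPM in principal-gated cells of both libraries. Of 16 claudin and junction genes, 0 were called against distal convoluted-gated cells, 1 was higher and 6 lower against principal-gated cells, and 5 were higher and 5 lower against thick limb-gated cells. Over all tested genes, the shares called were 0.802% against distal convoluted-gated, 20.7% against principal-gated and 10.2% against thick limb-gated cells. Whether the Notch and junction lists differ from those shares was not tested.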
